A study of Mus musculus with 4 samples.

Results

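10 mouse genes that p53 is known to activate were followed over 4 arrays of mouse embryonic stem cells: Cdkn1a, Mdm2, Ccng1, Sesn1, Trp53inp1, Bax, Bbc3, Phlda3, Plk2 and Zmat3. They were taken by their symbols in the platform annotation. Of the 10 genes, 9 had a probe set paired with that gene alone, out of 22180 such genes on the array. Bax had none in the annotation used here and is not analysed, and neither is Trp53, the p53 gene itself. Of the 9, 8 passed a filter on dim genes (a highest value of at least 4.84 over the 4 arrays, the median of all named probe sets), as did 12042 genes in all. Sesn1 lay below that value on every array.

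All cells lacked Prdm14, the gene of a transcription factor of the naive stem cell state and of germ cells, and were grown with 2i and LIF on STO feeder cells, a mouse fibroblast line. The control group carried an empty vector. The other groups carried the mouse PRDM14 protein, the sea urchin PRDM14 protein, or the latter with the co-repressor CBFA2T, also of sea urchin (below, the CBFA2T array). Each of the 4 groups had 1 array, all of strip 2, so the values have no replicate error and no test could be made. The promoter of the vectors, the number of clones and the level of the introduced proteins were not given in the sources used here. Total RNA was labelled from the whole culture, so fewer cells of a type and less RNA per cell cannot be told apart.

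The p53 protein is a transcription factor that is stabilised when DNA is damaged or growth signals are out of balance. It binds DNA as a tetramer, through pairs of half-sites, and switches on genes that stop the cell cycle, repair DNA, kill the cell or shut p53 itself off. Mouse embryonic stem cells are known for a short first gap phase and for weak arrest by p21, and p53 is known there mainly for its part in differentiation and cell death. The values here are RMA values on a log2 scale, in which a difference of 1 is a 2-fold difference. They compare a probe set between arrays, not a gene with another gene.

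Cdkn1a, Mdm2 and Ccng1 differed most between the CBFA2T array and the empty vector array, not all in 1 direction, so their promoter sequences are shown. Each is the 250 bases before an annotated start in RefSeq, build GRCm38.p6, 5′ to 3′ on the gene's strand, with p53 half-sites in capitals. Cdkn1a lies at chr17:29090729-29090978 on the plus strand, before the upstream start of its 2 annotated windows. Mdm2 lies at chr10:117710759-117711008 and Ccng1 at chr11:40755287-40755536, both on the minus strand.
Cdkn1a: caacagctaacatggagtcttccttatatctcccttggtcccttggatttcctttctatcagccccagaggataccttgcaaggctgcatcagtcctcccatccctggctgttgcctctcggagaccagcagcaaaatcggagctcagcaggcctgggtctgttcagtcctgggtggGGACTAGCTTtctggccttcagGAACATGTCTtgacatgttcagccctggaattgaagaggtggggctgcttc
Mdm2: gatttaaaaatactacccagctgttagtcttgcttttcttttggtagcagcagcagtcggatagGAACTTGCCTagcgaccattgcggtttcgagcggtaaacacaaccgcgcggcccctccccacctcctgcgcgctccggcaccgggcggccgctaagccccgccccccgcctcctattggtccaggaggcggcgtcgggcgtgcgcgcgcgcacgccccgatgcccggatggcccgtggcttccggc
Ccng1: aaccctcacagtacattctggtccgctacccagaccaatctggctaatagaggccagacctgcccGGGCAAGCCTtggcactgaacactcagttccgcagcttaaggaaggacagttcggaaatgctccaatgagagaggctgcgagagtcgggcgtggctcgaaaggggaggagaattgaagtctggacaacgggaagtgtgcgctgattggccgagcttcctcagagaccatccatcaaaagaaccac

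The half-site searched was the p53 decamer consensus, which reads the same on both strands. The Cdkn1a window held 2 half-sites, GGACTAGCTT and GAACATGTCT, which began 73 and 51 bases before the start with a spacer of 12 bases. It was the only one of 12 member windows with a pair at most 13 bases apart, which 0.0639% of all 32851 windows of this length held. The search took exact matches only. In the Cdkn1a window the bases tgacatgttc directly follow GAACATGTCT. They miss the consensus at 1 base, so this pair without a spacer was not counted. Which pair p53 binds was not tested. The Mdm2 window held GAACTTGCCT, 186 bases before the start, and the Ccng1 window held GGGCAAGCCT, 185 bases before the start. Of the 8 members with a window in the table, 5 had at least 1 half-site, in 5 of 12 windows, while 7.13% of all windows did. Bax and the downstream window of Sesn1 were the others. Trp53inp1 and Zmat3 had no entry in the promoter table. Ccng1 and Mdm2, higher on the CBFA2T array, and Cdkn1a, lower there, thus all carried a half-site in the windows shown. The other Cdkn1a window, before its downstream start, held none. A match of letters is not a measured binding site, and the known p53-responsive start of Mdm2 lies in its first intron, outside this window.

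Pearson's r between arrays, taken across all probe sets, was between 0.986 and 0.989, and array medians were between 4.54 and 4.55. RMA equalises the distributions, so near-equal medians follow from the method. Such an r rests largely on levels that differ from probe set to probe set. Neither value shows that the cultures were alike. The Prdm14 probe set lay between 5.53 and 5.77 and did not mark the array labelled mouse PRDM14, so this gene gives no check of the labels. Each group name means the array labelled with it. All 19 embryonic stem cell markers with a probe set were above 4.84 on every array, among them Pou5f1, Sox2 and Nanog. Of 29 feeder fibroblast markers, 18 or 19 were above it on each array. Their summed linear signal was 1573 with the empty vector, 1649 with mouse PRDM14, 1576 with sea urchin PRDM14 and 1496 on the CBFA2T array. Fn1 was the brightest of them, and such a sum leans on the brightest gene. Fn1 was at 7.79 with the empty vector and 7.30 on the CBFA2T array. On the latter array 9 of the 19 feeder markers past the filter were above the empty vector, beside 51.6% of all genes. Col5a1 (6.94 with the empty vector), Acta2 (6.86) and Vim (6.66) were bright too, while Lum, Dcn and Postn were below 4.84 on every array. These markers other than Fn1 were picked after their values were seen.

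No member was 2-fold apart in any of the 6 comparisons between the arrays. Some members were at the top of their range on the CBFA2T array and some at the bottom. Ccng1 and Mdm2 were higher there than on each of the other 3 arrays, and Cdkn1a was lower than on each of them. Phlda3 was highest there too, and Bbc3 and Zmat3 were lowest, with narrower ranges. Of the 8 members past the filter, 3 were thus highest on the CBFA2T array, beside 27.3% of all genes. The lowest there were 3 of the 8, beside 24.3% of all genes. With only 8 genes, both counts are near those shares. The other members were highest and lowest elsewhere.

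**Figure D1:**
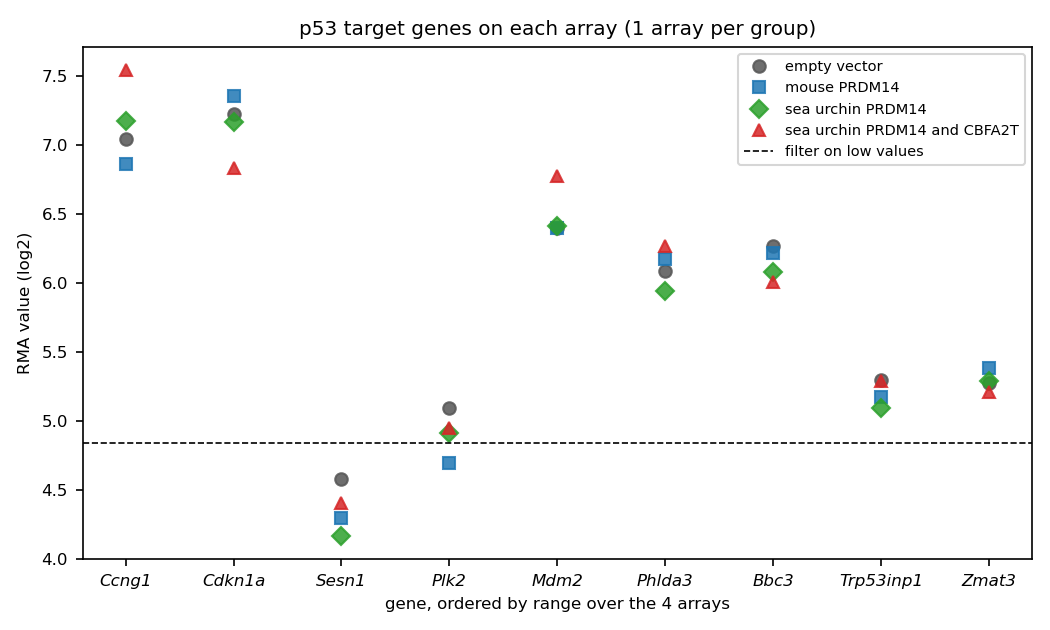
RMA values (log2) of the 9 measured p53 target genes, with 1 point for each of the 4 arrays and genes ordered by their range over the arrays; the dashed line is the filter on low values at 4.84. The CBFA2T array is highest for Ccng1, Mdm2 and Phlda3 and lowest for Cdkn1a, Bbc3 and Zmat3, and all Sesn1 points lie below the line.

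Cdkn1a encodes p21, the inhibitor of cyclin-dependent kinases through which p53 arrests the cell cycle. Its value was 7.22 with the empty vector, 7.36 with mouse PRDM14, 7.17 with sea urchin PRDM14 and 6.83 on the CBFA2T array. The first 3 lay within 0.19 of one another, and the CBFA2T array lay 0.33 below the nearest of them. Against the empty vector its difference was -0.39 (1.31-fold lower), and 3.37% of all genes past the filter differed at least as much in that comparison, in either direction. Against mouse PRDM14 it was -0.52 (1.44-fold lower), where 1.17% did.

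Fn1 was lower on the CBFA2T array too, at 7.30 against 7.79 with the empty vector, 8.09 with mouse PRDM14 and 7.86 with sea urchin PRDM14. It was the feeder marker with the widest range, and the median difference of the 19 markers past the filter on the CBFA2T array against the empty vector was -0.02. The part of feeder RNA in the Cdkn1a value was not tested.

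Mdm2 and Ccng1 belong to the negative feedback on p53. Mdm2 encodes the ubiquitin ligase that marks p53 for degradation. Its value was 6.40 with the empty vector, 6.40 with mouse PRDM14, 6.41 with sea urchin PRDM14 and 6.78 on the CBFA2T array. The first 3 could hardly be told apart, and the CBFA2T array stood 0.36 above the nearest. The difference from the empty vector was 0.38 (1.30-fold), a size that 3.78% of all genes past the filter reached.

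Ccng1 encodes cyclin G1, which recruits a phosphatase to Mdm2 and raises its activity. It had the widest range of the 9 measured members. Its value was 7.04 with the empty vector, 6.86 with mouse PRDM14, 7.17 with sea urchin PRDM14 and 7.54 on the CBFA2T array. The range of 0.68 (1.60-fold) was reached by 1.15% of the genes past the filter. Ccng1 was 0.50 higher on the CBFA2T array than with the empty vector (1.41-fold) and 0.37 higher than with sea urchin PRDM14 alone (1.29-fold). Against mouse PRDM14 it was 0.68 higher, a difference that 0.498% of all genes past the filter reached in either direction. This was the one member difference past 1.5-fold, a threshold that 0.739% of all genes passed in that comparison.

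Ccng1 lies on chromosome 11, where the median difference of 1067 genes past the filter was 0.07 on the CBFA2T array and 0.06 with sea urchin PRDM14, both against the empty vector. With the chromosome's median subtracted, Ccng1 was 0.43 higher on the CBFA2T array than with the empty vector, and 0.61 higher than with mouse PRDM14. A median over a whole chromosome does not remove a difference of part of it. The part of chromosome 11 in the Ccng1 value was not tested. For Mdm2 on chromosome 10 and Cdkn1a on chromosome 17 the medians against the empty vector were -0.01 and 0.00.

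Without symbols of predicted genes, olfactory or vomeronasal receptors and small RNAs, 97 genes had a range at least as wide as that of Ccng1. Among these, the nearest profiles over the 4 arrays, by Euclidean distance after centring each gene on its own mean, were those of Hsph1 (distance 0.06 on the log2 scale), Suclg2 (0.08), Rcor2 (0.17), Mylpf (0.19) and Cbl (0.21). Hsph1 encodes a heat shock protein of the HSP110 family, and Rcor2 a subunit of a histone demethylase co-repressor complex. Hsph1 was at 6.70 with the empty vector, 6.51 with mouse PRDM14, 6.90 with sea urchin PRDM14 and 7.23 on the CBFA2T array. Its order over the 4 arrays was that of Ccng1, which follows from its being picked as the nearest profile. None of the 5 lies on chromosome 11, and none is on a p53 list used here. Chromosome 11 held 1067 of the 12042 genes past the filter, and 5 genes are too few to draw anything from either count.

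The cell death members were Bbc3 and Bax, of which Bbc3 was measured. Bbc3 encodes PUMA, a BH3-only protein that frees Bax and Bak to open mitochondria. Its value was 6.27 with the empty vector, 6.22 with mouse PRDM14, 6.08 with sea urchin PRDM14 and 6.01 on the CBFA2T array. Both sea urchin arrays were below the other 2, by 0.14 or more. The difference from the empty vector was -0.19 with sea urchin PRDM14 and -0.26 on the CBFA2T array, sizes that 18.5% and 10.9% of all genes reached.

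Phlda3 encodes a pleckstrin homology protein that holds back AKT signalling. Its value was 6.09 with the empty vector, 6.17 with mouse PRDM14, 5.94 with sea urchin PRDM14 and 6.27 on the CBFA2T array. The 2 sea urchin arrays were its extremes, 0.32 apart, a difference that 3.95% of genes reached between these arrays. Trp53inp1 encodes a nuclear protein that promotes p53 activity and autophagy. It stood at 5.30 with the empty vector, 5.17 with mouse PRDM14, 5.09 with sea urchin PRDM14 and 5.29 on the CBFA2T array. Its whole range of 0.20 was reached by 46.1% of genes.

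Plk2 encodes a polo-like kinase of centriole duplication and the stress response. Its value was 5.10 with the empty vector, 4.70 with mouse PRDM14, 4.91 with sea urchin PRDM14 and 4.95 on the CBFA2T array. The mouse PRDM14 array was the lowest, below the filter value, and the difference of -0.40 from the empty vector was the largest of any member in that comparison. It was reached by 1.90% of genes. Sesn1 encodes a sestrin, which restrains mTORC1 when leucine is short. It was dim throughout, at 4.58 with the empty vector, 4.30 with mouse PRDM14, 4.17 with sea urchin PRDM14 and 4.40 on the CBFA2T array. The empty vector array was highest, but at this brightness background pulls differences toward 0.

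Zmat3 encodes a zinc finger RNA-binding protein that acts on splicing and mRNA stability. It had the narrowest range of the 9, at 5.27 with the empty vector, 5.38 with mouse PRDM14, 5.29 with sea urchin PRDM14 and 5.21 on the CBFA2T array. A range of this size (0.17) was reached by 57.2% of genes. A brighter probe set that the annotation shares between Zmat3 and 4930429B21Rik was not used for the gene. It lay between 6.32 and 6.51, also highest with mouse PRDM14 and lowest on the CBFA2T array.

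**Figure D2:**
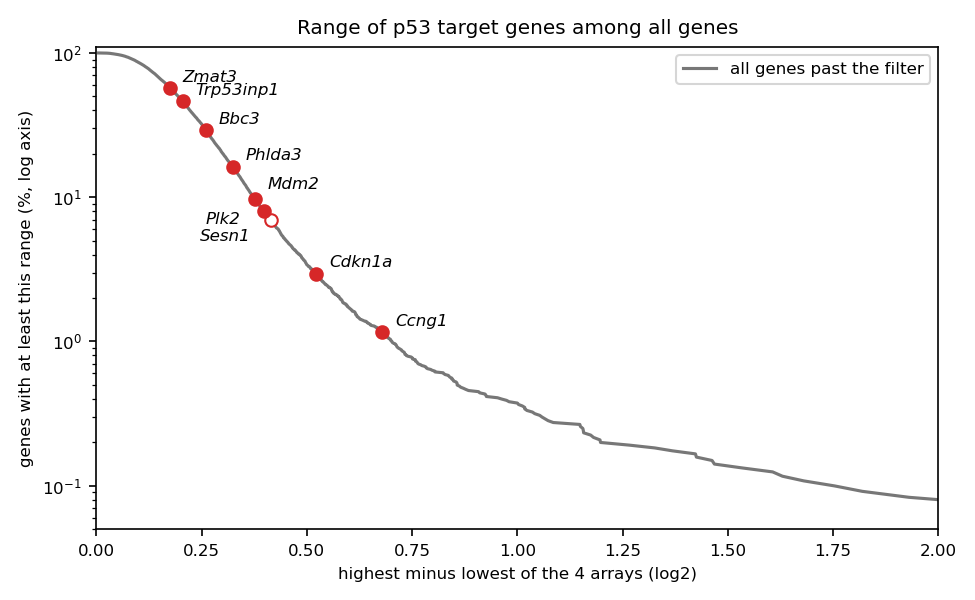
Percent of the 12042 genes past the filter (log axis) with at least a given range, the highest minus the lowest of the 4 arrays in log2, as a line, with the 9 measured p53 target genes as points on it; the open point is Sesn1, below the filter. Ccng1 (0.68) and Cdkn1a (0.52) lie farthest out, at 1.15% and 2.96% of genes, and Zmat3 (0.17) lies at 57.2%.

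The effect of mouse PRDM14 in cells without it is the first question. Of the 8 members past the filter, 0 were 2-fold apart, beside 0.0830% of all genes, and 4 were above 0, beside 48.4% of all genes. Their median difference was -0.02, and that of all genes -0.01. Plk2 (-0.40), Ccng1 (-0.18) and Trp53inp1 (-0.12) were the lowest, and Cdkn1a (0.13) and Zmat3 (0.11) the highest. Mdm2 differed by 0.00.

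The second is how these genes differed with sea urchin PRDM14, which does not show whether that protein works in mouse cells. Again 0 of 8 were 2-fold apart from the empty vector, beside 0.0332% of all genes. Of the 8, 3 were above 0, beside 51.6% of all genes, with a median of -0.10 beside 0.01 for all genes. Trp53inp1 (-0.20), Bbc3 (-0.19), Plk2 (-0.18) and Phlda3 (-0.14) were lower, none by more than 1.15-fold. Ccng1 (0.13) was the highest. Below the filter, Sesn1 differed by -0.41.

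On the CBFA2T array 0 of 8 were 2-fold apart from the empty vector, beside 0.208% of all genes. Ccng1 (0.50), Mdm2 (0.38) and Phlda3 (0.18) were above 0, and Cdkn1a (-0.39), Bbc3 (-0.26), Plk2 (-0.15), Zmat3 (-0.06) and Trp53inp1 (-0.01) below. The median was -0.04, beside 0.01 for all genes, and 3 of 8 were above 0, beside 51.6%. The 3 comparisons with the empty vector share its array, so a chance value of that array enters all 3.

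CBFA2T was next set against sea urchin PRDM14 alone, to ask what it adds. Here 0 of 8 were 2-fold apart, beside 0.183% of all genes, and 5 of 8 were above 0, beside 49.9% of all genes. The median was 0.12, beside 0.00 for all genes. Ccng1 (0.37), Mdm2 (0.36), Phlda3 (0.32) and Trp53inp1 (0.20) were higher with CBFA2T and Cdkn1a (-0.33) was lower. Bbc3 (-0.07) hardly differed, since it was low on both arrays.

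Between sea urchin and mouse PRDM14, 0 of 8 were 2-fold apart, beside 0.0581% of all genes, and 3 were above 0, beside 53.4%. Ccng1 (0.31) was the highest and Phlda3 (-0.23) the lowest, with a median of -0.09. Between the CBFA2T array and mouse PRDM14, 0 of 8 were 2-fold apart, beside 0.183% of all genes, and 5 were above 0, beside 52.9%. Ccng1 (0.68) and Cdkn1a (-0.52) were again the ends, with a median of 0.11.

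**Figure D3:**
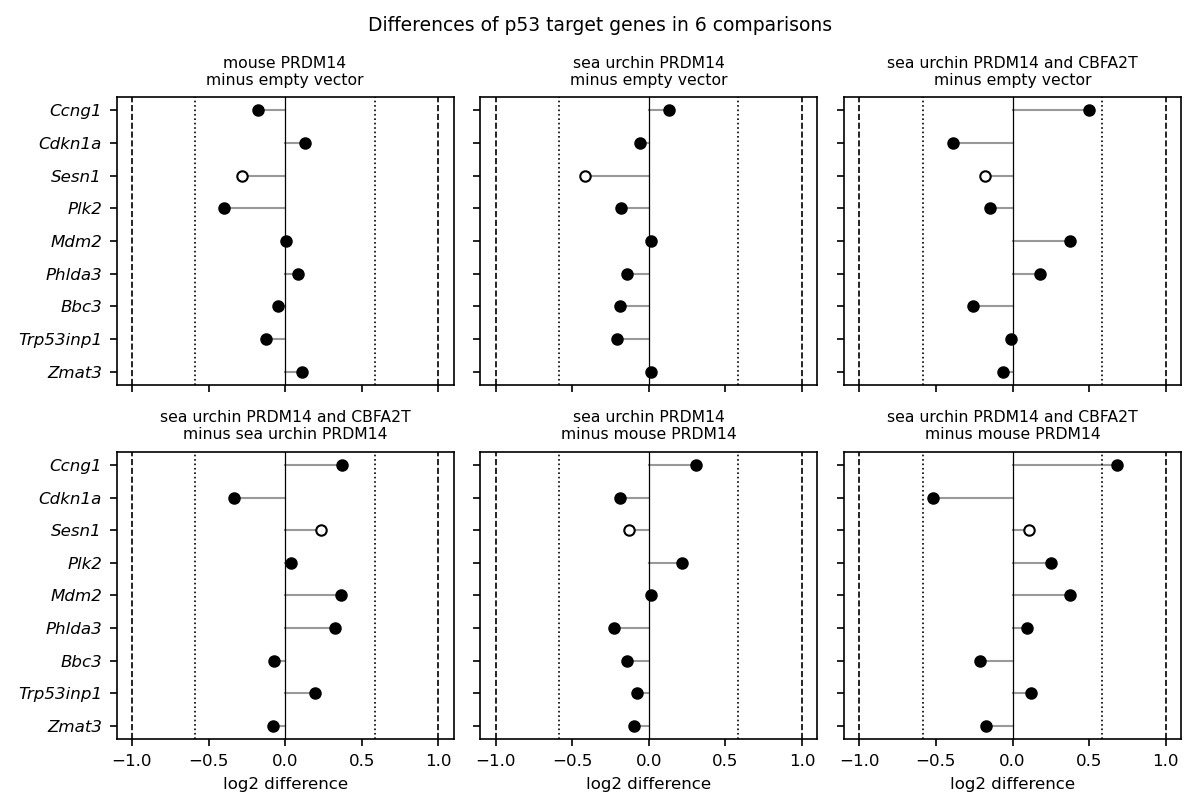
Log2 differences of the 9 measured p53 target genes in the 6 comparisons, 1 array against 1 array in each; dashed lines mark 2-fold, dotted lines 1.5-fold, and the open point is Sesn1, below the filter. No point reaches 2-fold, and Ccng1 on the CBFA2T array against mouse PRDM14 (0.68) is the one past 1.5-fold.

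Genes that act on p53 were looked at beside its targets. Of 27 listed family members and regulators, 26 had a probe set, 19 passed the filter and 0 were 2-fold apart in any comparison. Usp7, which encodes a deubiquitinase of Mdm2 and p53, had the widest range. It was at 6.35 with the empty vector, 6.27 with mouse PRDM14, 6.19 with sea urchin PRDM14 and 6.79 on the CBFA2T array. Like Mdm2 it was highest on the CBFA2T array, 0.44 above the empty vector and 0.60 above sea urchin PRDM14 alone. Usp7 lies on chromosome 16, where the median of 359 genes against the empty vector was 0.07 on the CBFA2T array. The medians of the 19 genes lay between -0.01 and 0.04 in the 6 comparisons.

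Other p53 targets showed no common direction either. Of 45 listed, 38 had a probe set, 32 passed the filter and 0 were 2-fold apart in any comparison. Their median differed from 0 by at most 0.05, and on the CBFA2T array 18 of 32 were above the empty vector, near the 51.6% of all genes. Cd80, a costimulatory ligand gene, had the widest range, from 4.63 on the CBFA2T array to 5.19 with mouse PRDM14. It is a dim gene. Pmaip1, which encodes the BH3-only protein NOXA, came next, at 6.48 with the empty vector, 6.02 with mouse PRDM14, 6.58 with sea urchin PRDM14 and 6.17 on the CBFA2T array. With mouse PRDM14 it was 0.47 below the empty vector, where Bbc3 differed by -0.05. Tnfrsf10b, a death receptor gene named after its values were seen, was at 5.37 with the empty vector, 5.53 with mouse PRDM14, 5.75 with sea urchin PRDM14 and 5.92 on the CBFA2T array, the highest.

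Pmaip1 also had the widest range of the Bcl2 family list (14 with a probe set, 11 past the filter) and of the paralogs of the members (21 with a probe set, 14 past the filter). In both lists 0 genes were 2-fold apart in any comparison. On the CBFA2T array 4 of the 14 paralogs were above the empty vector, beside 51.6% of all genes, with a median of -0.11. With mouse PRDM14 4 were above it too, beside 48.4%, and with sea urchin PRDM14 9 were, beside 51.6%. Between the CBFA2T array and mouse PRDM14 8 of the 14 were above 0, beside 52.9%. Against sea urchin PRDM14 alone 5 were, beside 49.9%. Of the 11 Bcl2 family genes 5 were above the empty vector on the CBFA2T array, near the 51.6% of all genes, with a median of -0.06.

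Cell cycle genes that p53 is known to lower through p21 were set beside Cdkn1a. Of 30 listed, 27 had a probe set, 25 passed the filter and 0 were 2-fold apart in any comparison. On the CBFA2T array 16 of 25 were above the empty vector, beside 51.6% of all genes, with a median of 0.04. Against mouse PRDM14 17 of 25 were above, beside 52.9%, with a median of 0.07. Against sea urchin PRDM14 alone 13 of 25 were, near the 49.9% of all genes, with a median of 0.01. Cdkn1a differed by -0.33 in that comparison. A link between Cdkn1a and the cell cycle genes was not tested. Top2a, the topoisomerase gene of dividing cells, had the widest range, at 6.79 with the empty vector, 6.91 with mouse PRDM14, 7.32 with sea urchin PRDM14 and 7.19 on the CBFA2T array. It lies on chromosome 11, like Ccng1.

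**Figure D4:**
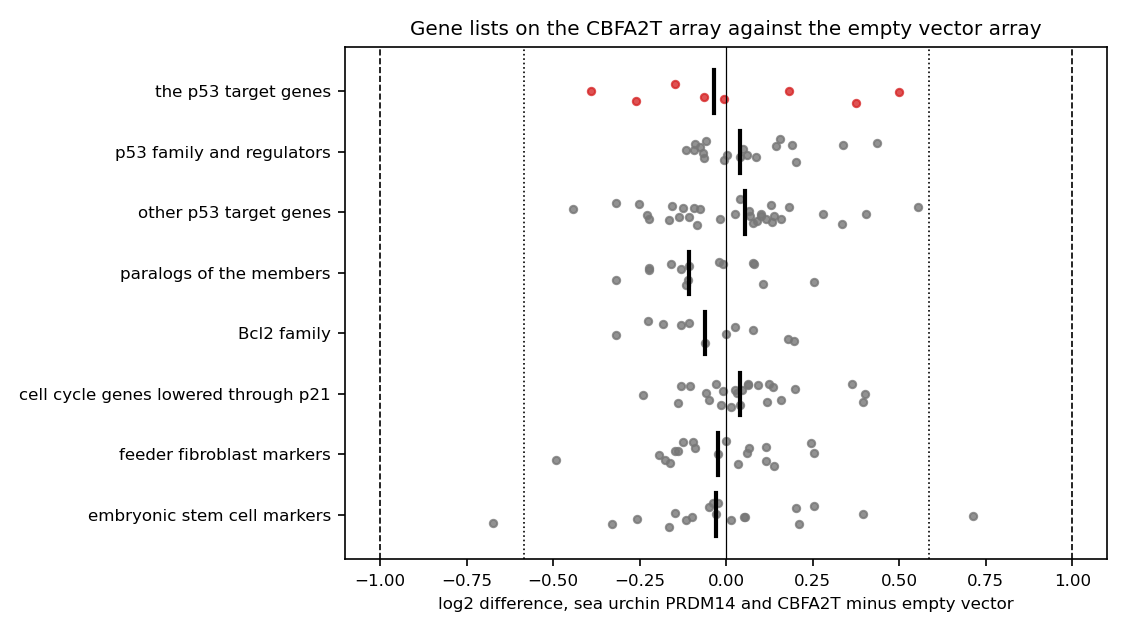
Log2 differences between the CBFA2T array and the empty vector array for the genes past the filter of 8 lists, with 1 point per gene (spread vertically to avoid overlap) and a bar at the list's median; dashed lines mark 2-fold and dotted lines 1.5-fold. The p53 target genes lie on both sides of 0, from -0.39 to 0.50, around a median of -0.04.

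The CBFA2T array also differed in markers of 2-cell-like cells. Of 19 markers of 2-cell-like cells with a probe set, 10 reached 4.84 there and 5 on each of the other arrays. Zscan4e was at 8.07 there and at 3.82 with the empty vector. Of 14 markers of differentiated cells past the filter, 3 were above the empty vector on the CBFA2T array, beside 51.6% of all genes, with a median of -0.11. The counts with mouse PRDM14 and sea urchin PRDM14 were also 3 of 14, but they share the empty vector array, and between the CBFA2T array and either of these 7 of 14 were above 0. Sox1, a neural progenitor gene, had the widest range of this list, at 5.24 with the empty vector and between 4.85 and 4.91 on the others. In the comparison with sea urchin PRDM14 alone, Tdgf1 (-1.16) and Fbxo15 (1.07) were the 2 of 19 stem cell markers past 2-fold, beside 0.183% of all genes. The part of any of these cell state differences in the values of Ccng1, Mdm2 and Cdkn1a was not tested.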

How the data were processed

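Total RNA of 4 cultures was measured on 4 arrays, 1 per group. The authors deposited log2 values and had used RMA, per the submitters' processing notes. This method corrects background, equalises the distributions and summarises probe sets. Its version was, like the genome build, not given in the sources used here. Of 41345 probe sets, 23521 were paired with 1 gene, 1814 with several and 16010 with none. A gene took its brightest probe set, and all 9 measured members had 1. Entrez identifiers of all 9 matched the RefSeq table of GRCm38.p6.

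With 1 array per group, differences were called by size at 2-fold, and the share of all genes past that size is given beside the members' counts. Members, gene lists and rules were chosen with earlier results of these data known. Named genes were the members, each list's genes past 2-fold (at most 4) or its widest-ranging one, and the 5 nearest profiles; other names were picked with their values in view. RMA gives no detection call. Alternatives were cyclic loess, median centring, mean probe sets, other filters, 1.5-fold, and chromosome medians subtracted (added after seeing the data). The work was done in R 4.3.3 with limma 3.58.1 and in Python 3.11.15 with numpy 2.4.6, pandas 2.3.3 and matplotlib 3.10.9.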

Additional observations from a re-analysis of the deposited data

How the results depend on the processing

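Over cyclic loess, median centring, mean probe sets, both other filters and subtracted chromosome medians, 0 members were 2-fold apart in any of the 6 comparisons. At 1.5-fold, 1 member passed (Ccng1, CBFA2T array against mouse PRDM14). Among 276 single-member differences under these alternatives, the largest shift was 0.07. Of these, 2 changed sign, both near 0: Mdm2 between sea urchin and mouse PRDM14 and Trp53inp1 on the CBFA2T array against the empty vector. Mean probe sets and both other filters could not shift such a difference, because each measured member has 1 probe set. Only the differences under cyclic loess, median centring and subtracted chromosome medians could shift. The medians of the members are less settled. With the stricter filter (5.65), which leaves 5 members, the median on the CBFA2T array was 0.18 against the empty vector instead of -0.04 and 0.32 against sea urchin PRDM14 alone instead of 0.12. Members above 0 were then 3 of 5 in the latter comparison, and 3 of 5 against mouse PRDM14. Leaving out 1 member at a time moved the medians as well. They lay between -0.06 and -0.01 on the CBFA2T array against the empty vector, between 0.04 and 0.20 against sea urchin PRDM14 alone, and between 0.09 and 0.12 against mouse PRDM14. For sea urchin PRDM14 they lay between -0.14 and -0.06 against the empty vector and between -0.10 and -0.08 against mouse PRDM14, and for mouse PRDM14 against the empty vector between -0.05 and 0.00. No paired analysis was possible because each group has 1 array. A single array per group limits the precision.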
